A study of Mus musculus with 12 samples.

Results

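The genes Zp1, Zp2, Zp3, Astl, Oosp1 and Cd9 encode proteins of the mouse egg coat and egg surface, and their RNA was measured in ovaries of C57BL/6 mice. They were taken by symbol, and all 6 were found among the 24255 genes of the deposited table. RNA came from whole ovaries of mice in which Cre recombinase under the Gdf9 promoter, active in oocytes, deleted Mtor (CKO, n = 5 libraries), and of wild-type mice (WT, n = 7 libraries). Every mouse, CKO and WT alike, was 6 months old and received equine chorionic gonadotropin (5 IU), which stimulates follicles to grow, with the ovaries taken 46 h later. Mtor encodes the kinase of the mTOR complexes, which link nutrients and growth factors to protein synthesis. Levels are FPKM, fragments scaled by transcript length and by the sequenced total. The name of 1 WT column is the title of WT replicate 3 and the description of WT replicate 5. WT replicate 3 has another column by its description, which leaves WT replicate 5, but as the name alone does not settle it the column is called the unnumbered WT library.

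The zona pellucida is the glycoprotein coat that a growing oocyte secretes around itself. In the mouse it is built from filaments of ZP1, ZP2 and ZP3, and sperm bind to ZP2 before they penetrate it. After fertilization the oocyte's cortical granules release ovastacin, the protease encoded by Astl, which cleaves ZP2 so that further sperm do not bind. Oosp1 encodes a small secreted protein of oocytes. Cd9 encodes a tetraspanin of the egg plasma membrane that is needed for sperm and egg to fuse, and it is also made by many somatic cells, among them macrophages, epithelial cells and endothelial cells. FIGLA, a basic helix-loop-helix factor, is known in mouse oocytes to bind E-boxes (letters CANNTG) in zona gene promoters together with the product of Tcf3.

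The genes lie on 5 chromosomes in RefSeq's annotation of GRCm38.p6, the assembly that mm10 names. Zp1 spans chromosome 19, 10914296 to 10920601, minus strand. Zp2 spans chromosome 7, 120126762 to 120145291, minus strand, and Zp3 spans chromosome 5, 135980105 to 135988624, plus strand. Astl spans chromosome 2, 127338639 to 127357655, plus strand. Oosp1 spans chromosome 19, 11667460 to 11691051, minus strand, and Cd9 spans chromosome 6, 125460266 to 125494760, minus strand. The 250 bases upstream of the annotated starts of Zp3, Astl, Oosp1 and Cd9 are shown as the windows searched for CANNTG. They are given 5′ to 3′ on the strand of the gene, from RefSeq on GRCm38.p6, and capitals mark each CANNTG. This motif is its own reverse complement, so a match on either strand is a match on both.
Zp3, chr5:135979855-135980104, plus strand: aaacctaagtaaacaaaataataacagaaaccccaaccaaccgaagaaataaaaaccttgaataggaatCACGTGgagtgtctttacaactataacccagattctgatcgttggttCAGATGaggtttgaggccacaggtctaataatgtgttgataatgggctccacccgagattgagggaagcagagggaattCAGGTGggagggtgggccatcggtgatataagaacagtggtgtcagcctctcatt
Astl, upstream start, chr2:127338389-127338638, plus strand: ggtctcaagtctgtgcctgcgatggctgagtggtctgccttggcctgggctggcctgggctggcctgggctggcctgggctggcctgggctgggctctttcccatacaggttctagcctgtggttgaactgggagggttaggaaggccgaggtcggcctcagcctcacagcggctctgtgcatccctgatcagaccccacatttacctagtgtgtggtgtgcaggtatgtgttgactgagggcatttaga
Astl, downstream start, chr2:127341386-127341635, plus strand: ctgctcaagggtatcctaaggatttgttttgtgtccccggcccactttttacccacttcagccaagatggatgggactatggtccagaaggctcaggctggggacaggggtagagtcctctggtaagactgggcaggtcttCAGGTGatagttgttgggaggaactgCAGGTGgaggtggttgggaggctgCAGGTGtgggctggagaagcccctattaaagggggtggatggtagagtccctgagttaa
Oosp1, chr19:11691052-11691301, minus strand: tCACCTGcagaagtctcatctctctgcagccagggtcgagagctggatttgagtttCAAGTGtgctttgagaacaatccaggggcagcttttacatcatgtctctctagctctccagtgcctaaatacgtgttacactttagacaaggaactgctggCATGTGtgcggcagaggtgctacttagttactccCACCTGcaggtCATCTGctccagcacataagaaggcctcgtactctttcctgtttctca
Cd9, chr6:125494761-125495010, minus strand: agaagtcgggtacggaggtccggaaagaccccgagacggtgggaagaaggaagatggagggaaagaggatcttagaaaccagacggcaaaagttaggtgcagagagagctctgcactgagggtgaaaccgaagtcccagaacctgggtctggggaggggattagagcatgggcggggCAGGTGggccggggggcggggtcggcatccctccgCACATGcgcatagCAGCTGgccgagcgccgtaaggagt

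Zp3 had 3 CANNTG matches in this window, whose first bases lie 181, 134 and 55 bases before the start. The match 181 bases before the start reads CACGTG, and the match 55 bases before it reads CAGGTG. The letters TATAA begin 29 bases before the Zp3 start, and again 160 bases before it. The downstream start of Astl had 3 matches, all CAGGTG, beginning 109, 83 and 59 bases before it, while the upstream start of Astl had 0. Oosp1 had 5 matches and Cd9 had 3. Of 32851 RefSeq windows of the same length, 66.2% held at least 1 CANNTG, 12.2% held at least 3 and 1.2% held at least 5. The form CAGGTG was found on either strand in 17.2% of the windows, CACGTG in 6.0% and TATAA in 22.8%. GC content was 43.6% for Zp3, 60.8% and 54.8% for the upstream and downstream Astl starts, 49.2% for Oosp1 and 61.6% for Cd9. A letter match is not evidence of binding.

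The members were low in whole ovary RNA except Cd9, so the precision of each value is set by few fragments. In single-transcript genes with low values, FPKM steps showed that 1 fragment on a 1 kb transcript was worth between 0.297 and 0.649 FPKM, a 2.19-fold range of depth over the 12 libraries. Between 14945 and 16083 genes were above 0 in a library. Mtor itself was at 4.63 to 5.88 FPKM in CKO ovaries and 3.84 to 5.55 FPKM in WT ovaries. The gene-level value is not limited to the deleted part of Mtor, and oocytes are a small part of an ovary, so it does not check the labels. Markers of granulosa cells, the somatic cells around the oocyte, were present in every library, with summed levels of 1350 to 2509 FPKM in CKO and 3725 to 6643 FPKM in WT. Other oocyte genes summed to 73.7 to 160.0 FPKM in CKO and 186.0 to 496.0 FPKM in WT. CKO replicates 2 and 3 stood apart in Ovgp1, an oviduct gene, at 252 and 81.9 FPKM, against 1.54 to 1.87 FPKM in the other CKO libraries and at most 1.45 FPKM in WT. CKO replicates 1 and 5 had the highest summed macrophage markers, 2548 and 2978 FPKM. The sums were 732 to 955 FPKM in the other CKO libraries and 180 to 577 FPKM in WT, and most of each was Lyz2. The unnumbered WT library stood apart from the other WT libraries in the granulosa genes Cyp19a1, Inhba and Amh. Cyp19a1 was at 1.26 FPKM in it and 28.8 to 88.9 FPKM in the others, and Inhba at 39.4 and 194 to 501 FPKM. Amh was at 309 FPKM, against 35.1 to 126 FPKM in the others. Its granulosa sum, 3748 FPKM, lay within the range of the others. It was the highest WT library in Zp3, Astl, Oosp1 and the oocyte sum. The labels do not say that each library came from a separate animal, so the p-values here speak of the spread among these samples, which may be technical.

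Of the 4 members that could be tested, Astl and Zp3 fell in CKO ovaries, Cd9 rose and Oosp1 did not pass the test. Differences were tested with limma on log2(FPKM + 1) over 13168 genes that reached 1 FPKM in at least 5 libraries, and p-values were adjusted by Benjamini-Hochberg over all of them (threshold 0.05). Over all genes tested, 8.7% were called higher and 7.59% lower in CKO. Zp1 and Zp2 did not pass the filter on low values. Oosp1 passed it through WT libraries only, and Astl reached 1 FPKM in 2 CKO libraries, so the count of members called is given without further reading. Fold changes on the log2(FPKM + 1) scale understate differences of low genes. RNA of a whole ovary does not tell apart fewer oocytes from less RNA in each oocyte.

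**Figure D1:**
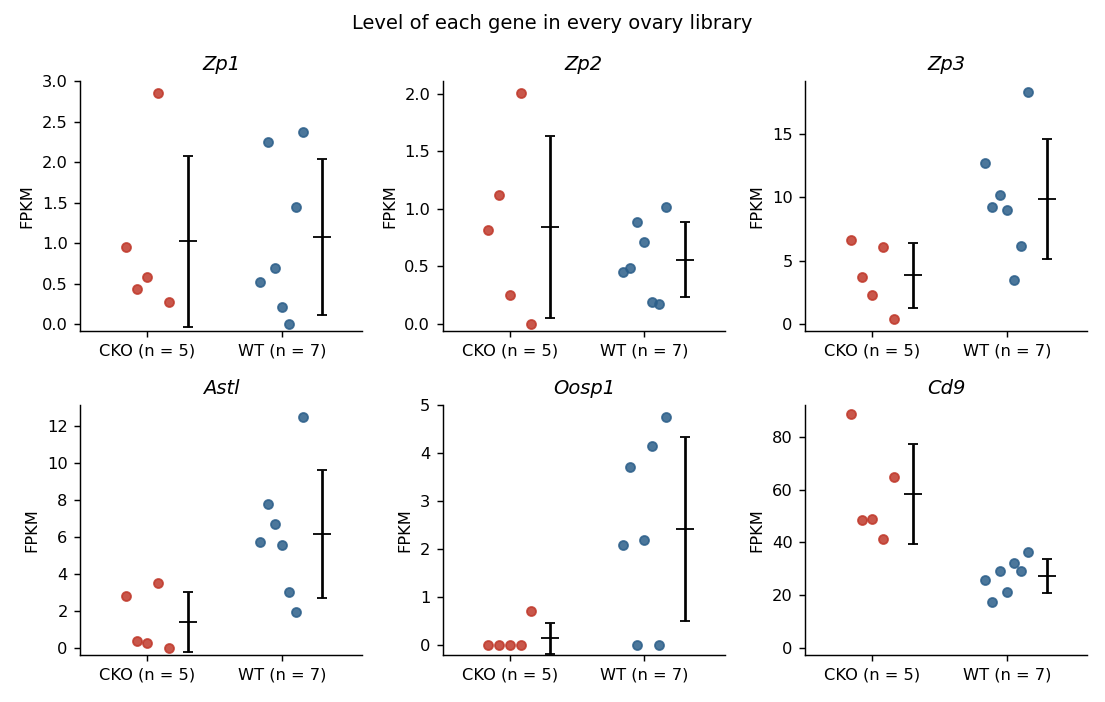
Each panel plots the level of 1 gene in FPKM (vertical axis, linear) in 5 CKO and 7 WT ovary libraries. Points are libraries and bars are the mean ± SD. The CKO points of Cd9 all lie above the WT points, those of Zp3 and Astl lie low but overlap WT, and 4 of 5 CKO points of Oosp1 lie at 0.

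Zp3, which encodes a filament subunit of the zona, was at 6.64, 3.74, 2.30, 6.08 and 0.426 FPKM in CKO replicates 1 to 5. In WT ovaries it ranged from 3.49 to 18.3 FPKM with a median of 9.21. The groups overlapped, since CKO replicates 1, 2 and 4 lay above the lowest WT library, and CKO replicate 5 was the lowest of all 12. Zp3 averaged 3.84 ± 2.59 FPKM in CKO and 9.86 ± 4.74 FPKM in WT (SD, n = 5 and 7), a log2 fold change of -1.27 (SE 0.41, limma adjusted p = 0.0471). In fragments, these values stand for 59 in the CKO libraries together and 188 in the WT libraries together. The call was lost when CKO replicate 2 (adjusted p = 0.0659), CKO replicate 3 (0.103) or CKO replicate 5 (0.11) was left out. It was also lost without WT replicate 1 (0.0883), WT replicate 2 (0.0739), WT replicate 3 (0.0733), WT replicate 4 (0.0745) or the unnumbered WT library (0.074), with the log2 fold change between -1.49 and -0.88 over all 12 such limma fits. An exact permutation test over the 12 libraries gave p = 0.024 before adjustment and 0.109 after adjustment over all genes.

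Astl, the gene of ovastacin, fell in CKO ovaries. Its levels in CKO replicates 1 to 5 were 2.79, 0.365, 0.246, 3.50 and 0 FPKM. In WT ovaries Astl ranged from 1.91 to 12.5 FPKM with a median of 5.69. CKO replicates 1 and 4 lay within the WT range, and the other 3 CKO libraries lay below every WT library. The means were 1.38 ± 1.64 FPKM in CKO and 6.16 ± 3.46 FPKM in WT (SD, n = 5 and 7), a log2 fold change of -1.72 (SE 0.43, limma adjusted p = 0.0142). The call held in all 12 fits that left out 1 library, with an adjusted p of at most 0.0406. With 0.1 FPKM added in place of 1, the log2 fold change was -2.96 (limma adjusted p = 0.0195). The call was lost without CKO replicates 2 and 3 together (log2 fold change -1.33, limma adjusted p = 0.107), and the exact permutation test gave an adjusted p of 0.0549 over all genes.

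Oosp1, the gene of an oocyte-secreted protein, was listed at 0 in CKO replicates 1 to 4 and at 0.718 FPKM, the level of 1 fragment, in CKO replicate 5. In WT ovaries it was listed at 0 in replicates 3 and 7 and reached 2.08, 3.71, 2.18 and 4.15 FPKM in replicates 1, 2, 4 and 6, and 4.76 FPKM in the unnumbered library. The WT median was 2.18 FPKM, and every WT library above 0 exceeded every CKO library. Oosp1 averaged 0.144 ± 0.321 FPKM in CKO and 2.41 ± 1.91 FPKM in WT (SD, n = 5 and 7). Its log2 fold change of -1.33 (SE 0.44) missed the threshold with a limma adjusted p of 0.0535, and with 0.1 FPKM added it was -3.00 (limma adjusted p = 0.0909). It passed without WT replicate 3 (-1.58, adjusted p = 0.0159) and without WT replicate 7 (-1.58, adjusted p = 0.0153), both libraries at 0. Read from the steps between low values, these stand for 1 fragment in CKO and 28 in WT together. An estimate from transcript length and depth gave 1 in CKO and 38 in WT. Oosp1 has related neighbours among the oocyte-secreted protein genes, and how the authors assigned reads shared by such genes is not given in the sources used here.

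Zp1 and Zp2, which encode the filament cross-linker and the sperm-binding subunit of the zona, were near or below 1 FPKM in both genotypes. Zp1 was at 0.949, 0.434, 0.586, 2.86 and 0.274 FPKM in CKO replicates 1 to 5, and at 0 to 2.38 FPKM in WT with a median of 0.69. Zp2 was at 0.815, 1.12, 0.251, 2.01 and 0 FPKM in CKO replicates 1 to 5, and at 0.177 to 1.02 FPKM in WT with a median of 0.482. The groups overlapped for both genes, and CKO replicate 4 was the highest of all 12 libraries for each. Fitted with limma without the filter on low values, the log2 fold change was -0.02 (SE 0.35, adjusted p = 0.976) for Zp1 and 0.16 (SE 0.25, adjusted p = 0.733) for Zp2. The values stand for 22 fragments in CKO and 32 in WT for Zp1, and 22 in CKO and 19 in WT for Zp2. With so few fragments, a modest difference in either gene was not detectable.

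Cd9, the fusion tetraspanin, was the member with the highest level and the one that rose in CKO ovaries. Its levels in CKO replicates 1 to 5 were 88.8, 48.4, 48.9, 41.2 and 64.9 FPKM, against 17.3 to 36.5 FPKM in WT with a median of 29.1. Every CKO library lay above every WT library, which held in this direction for 4.09% of all genes tested and in either direction for 7.73%. Cd9 averaged 58.4 ± 19.0 FPKM in CKO and 27.3 ± 6.5 FPKM in WT (SD, n = 5 and 7), a log2 fold change of 1.05 (SE 0.20, limma adjusted p = 0.00295). The call held in each of the 12 fits that left out 1 library, with log2 fold changes of 0.89 to 1.16. The exact permutation test gave p = 0.00126, the smallest it can give, and 0.0215 after adjustment. Leaving out CKO replicates 1 and 5 together, the libraries highest in macrophage markers and in Cd9, gave 0.77 (limma adjusted p = 0.0257). That pair was chosen after seeing the data, and without the highest Cd9 values a smaller difference was set in advance. The CKO libraries left still had macrophage sums above WT (732 to 955 against 180 to 577 FPKM). The fit therefore does not test the part of macrophages in Cd9.

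In the authors' deposited table, the log2 fold changes, CKO over WT, were -1.36 for Zp3 (q = 0.00158), -2.16 for Astl (q = 0.0507) and 1.1 for Cd9 (q = 0.0006). The authors' deposited table gives a log2 fold change of -4.07 for Oosp1, -0.07 for Zp1 and 0.58 for Zp2, each with a q of 1. Such a q can stand for a gene that was not tested, so it is not read as no difference. Of the genes tested here, 14.8% had a q under 0.05 there, a share whose base includes any genes the authors did not test. The direction matched the fits on log2(FPKM + 1) for all 6 members. Among Zp3, Astl and Cd9, the call differed for Astl.

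By mean level, Cd9, Zp3 and Astl were the 3 highest members in both genotypes. In CKO ovaries mean levels ran from Cd9 through Zp3, Astl, Zp1 and Zp2 to Oosp1. In WT ovaries they ran from Cd9 through Zp3, Astl, Oosp1 and Zp1 to Zp2. Cd9 was above Zp3, and Zp3 above Astl, in 5 of 5 CKO libraries and 7 of 7 WT libraries. Further down, neighbours did not keep their order: Astl was above Zp1 in 2 of 5 CKO libraries, and Zp1 was above Zp2 in 4 of 5 CKO libraries and 4 of 7 WT libraries. Oosp1 was below Zp2 in 4 of 5 CKO libraries, and it was above Zp1 in 5 of 7 WT libraries.

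Within a library, Zp1 and Zp2 took a larger part of the zona transcripts in CKO ovaries than in WT ovaries. As a share of the summed FPKM of Zp2 and Zp3, Zp2 was 10.9%, 23.0%, 9.85%, 24.8% and 0% in CKO replicates 1 to 5, against 2.81% to 8.01% in WT. In 4 of 5 CKO libraries this share lay above every WT library, and in CKO replicate 5 it rests on 0 fragments of Zp2 and 1 of Zp3. The mean share was 13.7 ± 10.3% in CKO and 5.28 ± 1.88% in WT (SD, n = 5 and 7, two-sided exact permutation p = 0.0492, adjusted over 3 shares 0.0492). Zp1 was 22.9 ± 12.4% of Zp1 and Zp3 in CKO and 8.96 ± 7.96% in WT (exact permutation p = 0.0404, adjusted 0.0492), with 3 of 5 CKO libraries above every WT library. Of these, CKO replicate 5 (39.1%) rests on 1 fragment of Zp1 and 1 of Zp3, and CKO replicate 3 (20.3%) on 2 of Zp1 and 5 of Zp3. Without CKO replicate 5 the adjusted exact permutation p for Zp1 was 0.097. Astl, in contrast, was 16.9 ± 15.4% of Astl and Zp3 in CKO and 37.9 ± 8.07% in WT (exact permutation p = 0.0139, adjusted 0.0417). The Astl share in CKO replicate 5 rests on 0 fragments of Astl and 1 of Zp3. These shares were added after the values had been seen. With 1 library left out, the adjusted p stayed under 0.05 in 1 of 12 tests for Zp2 (without CKO replicate 5, 0.00909), in 4 of 12 for Zp1 (without CKO replicate 1 or 2 or WT replicate 2 or 7) and in 5 of 12 for Astl (without CKO replicate 1, 2 or 4 or WT replicate 2 or 7), and it reached 0.124, 0.124 and 0.0801 for these genes in that order.

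**Figure D2:**
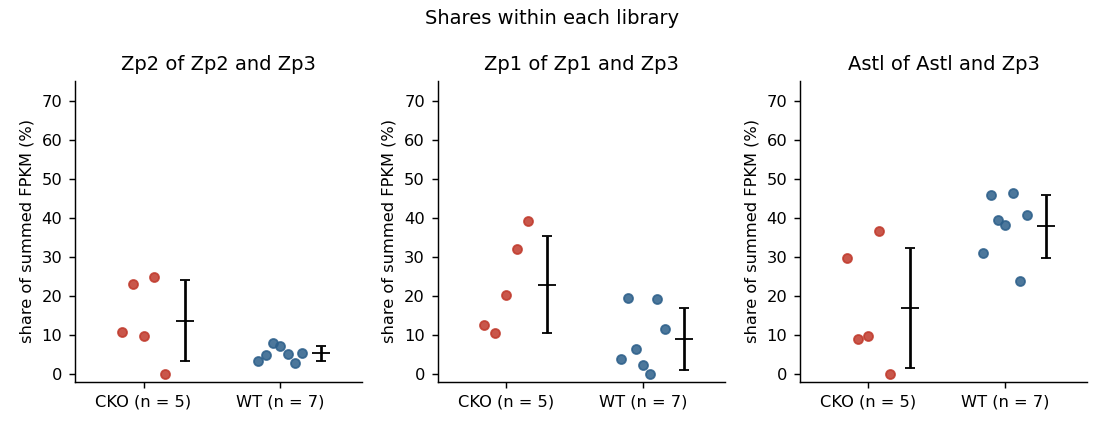
Each panel plots the share of 1 gene in the summed FPKM of that gene and Zp3 (vertical axis, percent) in 5 CKO and 7 WT libraries. Points are libraries and bars are the mean ± SD, with Zp2 at 13.7% in CKO and 5.28% in WT, Zp1 at 22.9% and 8.96%, and Astl at 16.9% and 37.9%.

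Log2 ratios within libraries were compared for 11 pairs by two-sided exact permutation, with adjustment over the 11. An added 1 FPKM compresses the differences of genes near or below 1 FPKM, so a ratio of Zp1 or Zp2 to a higher gene moves up by construction when both genes fall in proportion. The log2 ratio of Zp2 to Zp3 was -1.28 ± 0.56 in CKO and -2.70 ± 0.46 in WT, a difference of 1.43 (exact adjusted p = 0.0139), and that of Zp1 to Zp3 was -1.16 ± 0.72 in CKO and -2.40 ± 0.64 in WT, a difference of 1.25 (exact adjusted p = 0.0306). The Zp1 to Zp3 call was lost in 7 of 12 tests that left out 1 library, without CKO replicates 3, 4 or 5, WT replicates 1, 3 or 4, or the unnumbered WT library, with an adjusted p of up to 0.0733. The difference for the ratio of Zp1 to Zp2 was within the spread (-0.18, exact adjusted p = 0.83). Against the mean of 16 other oocyte genes, Zp2 was higher by 1.5 (exact adjusted p = 0.0139) and Zp1 by 1.32 (0.0174) on the log2 scale in CKO relative to WT. For Zp3 the same difference was 0.07 (exact adjusted p = 0.943), for Astl -0.38 (0.224) and for Oosp1 0.01 (0.987). With 0.1 FPKM added these became 0.23 (exact adjusted p = 0.596), -1.09 (0.101) and -1.13 (0.455). The differences of Zp2 with 0.1 FPKM added were 1.69 to Zp3 (exact adjusted p = 0.0139) and 1.92 to the oocyte genes (0.0139). Those of Zp1 were 1.80 to Zp3 (exact adjusted p = 0.0486) and 2.03 to the oocyte genes (0.0361), so these differences were not smaller with the lower added value. Cd9 relative to Zp3 was higher in CKO by 2.32 (exact adjusted p = 0.0139). The ratio of Astl to Zp3 gave -0.45 (exact adjusted p = 0.213) with 1 FPKM added and -1.32 (0.0361) with 0.1 FPKM added, and that of Oosp1 to Zp3 gave -0.06 (0.987), or -1.37 (0.455) with 0.1 FPKM added. Oosp1 is listed at 0 in 4 of 5 CKO libraries, and its ratios depend on the added value.

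Most other listed genes of the egg surface and zona did not pass the test. The list also holds genes that are not of oocytes alone, such as Ovgp1 of the oviduct, so its median is not one of oocyte genes. All 9 listed were in the table and 7 were tested, with 0 called higher and 1 lower, and a median log2 fold change of -0.05, beside -0.01 over all genes tested. Of all genes tested, 7.59% were called lower. The called gene was Izumo1r, which encodes Juno, the egg receptor for the sperm protein IZUMO1. Izumo1r was at 1.49, 0.686, 0, 0 and 0 FPKM in CKO replicates 1 to 5, against 0.652 to 3.76 FPKM in WT with a median of 2.06. CKO replicates 1 and 2 lay within the WT range and the other 3 CKO libraries were listed at 0. Its log2 fold change was -1.01 (SE 0.32, limma adjusted p = 0.0419). Among CKO libraries only replicate 1 reached 1 FPKM, and WT libraries alone met the filter, so the call of Izumo1r is given without further reading. Fitted without the filter, its limma adjusted p was 0.0543. The call was lost without CKO replicates 3, 4 or 5, WT replicates 1, 2 or 4, or the unnumbered WT library, with an adjusted p of up to 0.102.

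Among the rest of this group, Plac1, first known from placenta and also present in oocytes, averaged 0.926 FPKM in CKO and 2.98 FPKM in WT (log2 fold change -0.98, limma adjusted p = 0.0647). Cd81, a tetraspanin that acts beside CD9 in fusion, was at 319 ± 30.4 FPKM in CKO and 293 ± 20.4 FPKM in WT (0.12, limma adjusted p = 0.425). Ptgfrn and Igsf8, which encode partner proteins of CD9 and CD81, had log2 fold changes of 0.14 (limma adjusted p = 0.522) and -0.12 (0.742). Fetub, whose product is a liver-derived inhibitor of ovastacin, was at 2.82 FPKM in CKO and 2.90 FPKM in WT (limma adjusted p = 0.927). Ovgp1, the oviduct glycoprotein gene, had a log2 fold change of 3.09 (limma adjusted p = 0.0517) that lay in CKO replicates 2 and 3 as given above. Summed oviduct markers, which include Ovgp1 itself, were 277 and 97.1 FPKM in those libraries, 11.1 to 13.2 FPKM in the other CKO libraries and 7.33 to 12.5 FPKM in WT. In WT, Sox17 alone was at 5.95 to 11.3 FPKM. Oosp2 and Oosp3 did not pass the filter, and Oosp3 was listed at 0 in all 5 CKO libraries and at up to 1.18 FPKM in WT, with 1 WT library at 0. Fitted without the filter, the log2 fold change was -0.10 for Oosp2 (limma adjusted p = 0.839) and -0.72 for Oosp3 (0.00966).

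Of the 6 listed regulators of zona genes, 5 were tested, with 0 called higher, 1 lower and a median log2 fold change of 0.08. Among all genes tested, 7.59% were called lower. Taf4b, which encodes a TFIID subunit needed for mouse oocyte development, was at 3.62, 3.89, 2.71, 3.42 and 1.42 FPKM in CKO replicates 1 to 5, against 4.30 to 8.74 FPKM in WT with a median of 7.02. Every CKO library lay below every WT library, which held in this direction for 3.65% of genes tested. The log2 fold change of Taf4b was -0.99 (SE 0.20, limma adjusted p = 0.00387), and the call held in 12 of 12 fits without 1 library. Figla averaged 1.97 ± 1.61 FPKM in CKO and 0.644 ± 0.649 FPKM in WT (log2 fold change 0.74, limma adjusted p = 0.227), and its partner gene Tcf3 averaged 22.7 FPKM in CKO and 25.0 FPKM in WT (-0.13, adjusted p = 0.424). Nobox and Lhx8, homeobox genes of early oocytes, had log2 fold changes of 0.17 (limma adjusted p = 0.792) and 0.08 (0.931). Sohlh1 did not pass the filter.

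Cortical granule transport genes numbered 4, all tested, with 0 called higher, 1 lower and a median log2 fold change of -0.13. The share of all genes tested that was called lower was 7.59%. Rab27a, a small GTPase of secretory granule transport that is needed for cortical granule movement in mouse oocytes, was at 9.86, 36.1, 32.2, 66.0 and 61.5 FPKM in CKO replicates 1 to 5, against 32.2 to 163 FPKM in WT with a median of 105. The groups overlapped, with the unnumbered WT library at the WT minimum. That library had the highest sum of other oocyte genes, 496 FPKM. Which cells of the ovary made the Rab27a RNA was not tested. Rab27a had a log2 fold change of -1.43 (SE 0.43, limma adjusted p = 0.0373), and the call held only without CKO replicate 4 or 5 or the unnumbered WT library, with an adjusted p of up to 0.0811 in the other 9 fits. Rab3a, Snap23 and Myo5a, which act in docking, membrane fusion and actin-based transport of vesicles, had log2 fold changes of -0.35 (limma adjusted p = 0.0955), 0.08 (0.518) and 0.33 (0.0811).

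**Figure D3:**
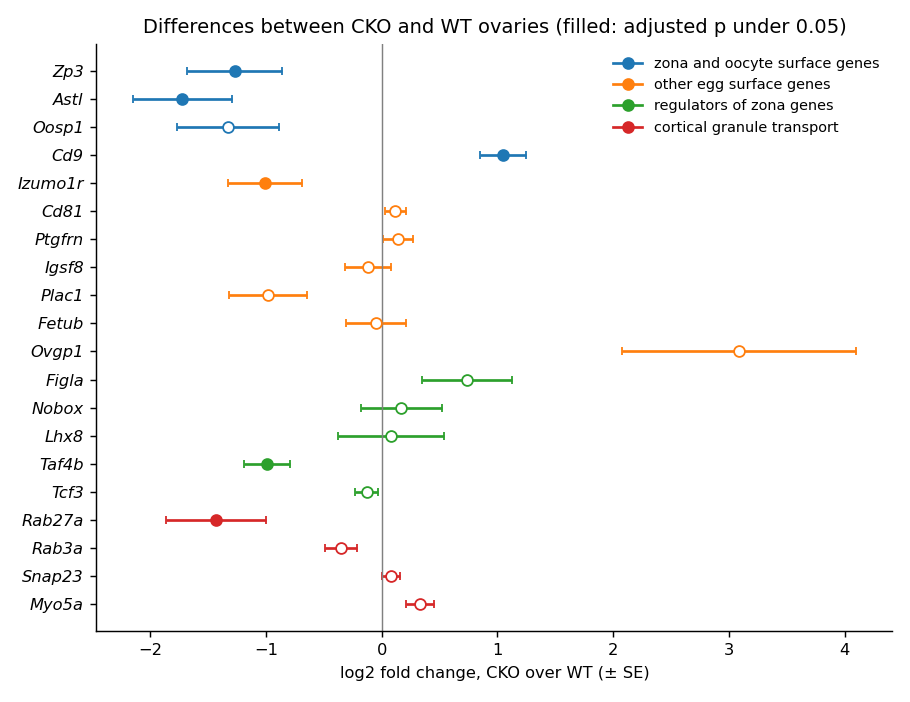
Log2 fold change of CKO over WT on the log2(FPKM + 1) scale (horizontal axis) for each tested member, other egg surface gene, zona regulator and cortical granule gene (rows). Points are limma estimates, bars are ± SE and filled points have an adjusted p under 0.05. Zp3, Astl, Izumo1r, Taf4b and Rab27a are filled left of 0 and Cd9 is filled right of 0.

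The protein families of the members gave different counts. Of 11 other genes whose products hold a zona pellucida domain, a module for making filaments, 4 were tested, with 0 called higher and 1 lower and a median of 0.21. Among all genes tested, 7.59% were called lower. Zpld1 averaged 0.0706 FPKM in CKO and 2.53 ± 1.52 FPKM in WT, with CKO values of at most 0.197 FPKM and the unnumbered WT library listed at 0 (log2 fold change -1.57, SE 0.34, limma adjusted p = 0.00659). Zpld1 passed the filter through WT libraries only, so its call is given without further reading. Eng and Tgfbr3, co-receptors of the TGF-beta family, had log2 fold changes of 0.22 (limma adjusted p = 0.418) and 0.20 (0.493), and Oit3 had 0.22 (0.433). Umodl1 did not pass the filter and is named because its groups did not overlap, with at most 0.336 FPKM in CKO and 0.866 to 2.08 FPKM in WT. Groups did not overlap in this direction for 3.65% of genes tested. Its log2 fold change was -1.15 (limma adjusted p = 0.000913 without the filter). As Umodl1 was picked by its values, that p is no separate support. Of 5 other astacin protease genes, only Bmp1, the procollagen C-proteinase, was tested, at 25.9 ± 2.92 FPKM in CKO and 22.5 ± 2.61 FPKM in WT (log2 fold change 0.20, limma adjusted p = 0.233). Tll1 and Tll2 were below the filter, and Mep1a and Mep1b were listed at 0 in all 12 libraries.

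Of 28 other tetraspanin genes, 26 were tested, and 8 were called higher and 0 lower in CKO, with a median log2 fold change of 0.10. Over all genes tested, 8.7% were called higher. The highest log2 fold changes among those tested were those of Cd53, a leukocyte tetraspanin, at 35.1 ± 20.5 FPKM in CKO and 9.65 ± 5.63 FPKM in WT (1.72, limma adjusted p = 0.00441), and Cd37, also of leukocytes, at 4.54 FPKM in CKO and 1.01 FPKM in WT (1.39, adjusted p = 0.0106). Tspan13 followed at 28.6 FPKM in CKO and 15.3 FPKM in WT (0.88, limma adjusted p = 0.00281). Cd63, a tetraspanin of late endosomes and lysosomes, was at 41.0 FPKM in CKO and 23.8 FPKM in WT (0.77, limma adjusted p = 0.00808). Cd82 was at 62.8 ± 5.0 FPKM in CKO and 39.3 ± 6.91 FPKM in WT (0.68, limma adjusted p = 0.00195). Tspan17 (0.69, limma adjusted p = 0.0221), Tspan4 (0.52, 0.0104) and Tspan7 (0.45, 0.00813) were also called, and Tspan17 lost the call without CKO replicate 3 (0.0534). The tetraspanins with the highest mean levels, Cd81, Cd151 (-0.24, limma adjusted p = 0.356) and Tspan31 (0.25, 0.258), did not pass the test. Tspan10 did not pass the filter and is named because its groups did not overlap, with 0.605 to 3.53 FPKM in CKO and at most 0.208 FPKM in WT. Groups did not overlap in this direction for 4.09% of genes tested. Its log2 fold change was 1.33 (limma adjusted p = 0.00357 without the filter). As Tspan10 was picked by its values, that p is no separate support.

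**Figure D4:**
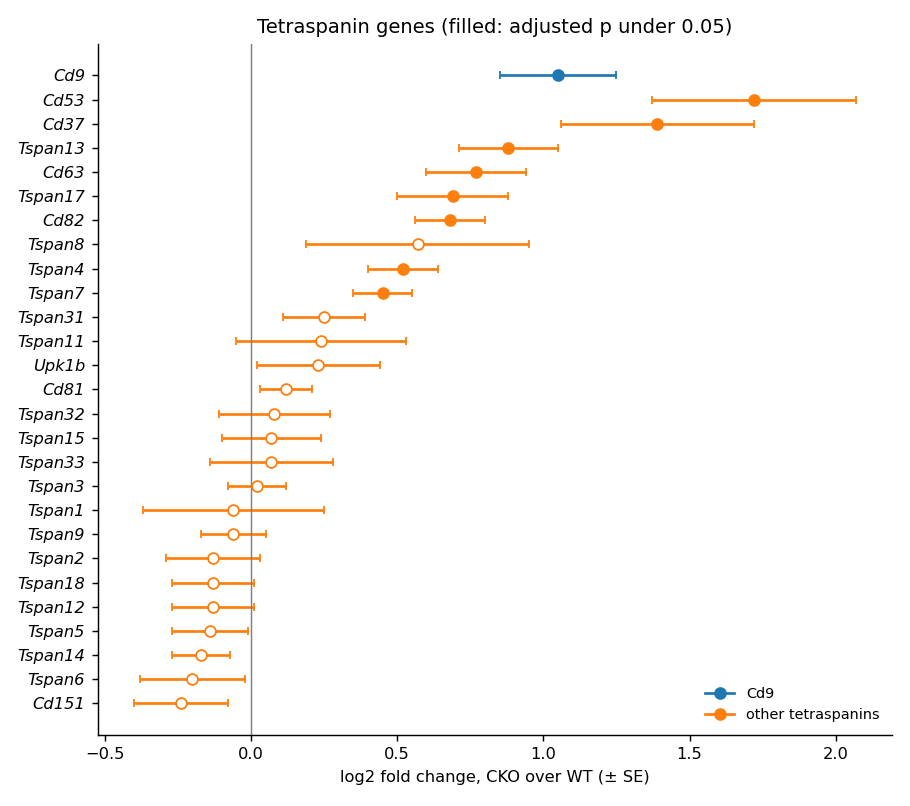
Log2 fold change of CKO over WT on the log2(FPKM + 1) scale (horizontal axis) for Cd9 and the 26 other tested tetraspanin genes (rows, in falling order below Cd9). Points are limma estimates, bars are ± SE and filled points have an adjusted p under 0.05, which are Cd9 at 1.05 and 8 others between 0.45 and 1.72.

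Most macrophage markers and 4 mast cell markers were also higher in CKO ovaries, while most markers of surface epithelium and endothelium, which also make Cd9, did not pass the test. Of 6 macrophage markers, 4 were called higher in CKO and 0 lower, while Adgre1 (limma adjusted p = 0.135) and Itgam (0.0809) were not called. The macrophage sum did not overlap between the groups (732 to 2978 FPKM in CKO, 180 to 577 FPKM in WT). Of single genes tested, 4.09% did not overlap in this direction. Most of the sum was Lyz2, at 634 to 2670 FPKM in CKO and 163 to 517 FPKM in WT. The sum is therefore largely the level of that gene. Of 9 mast cell, platelet and blood markers, 7 were tested and 4 were called higher, namely Fcer1a, Cpa3, Cma1 and Tpsb2 of mast cells. Sums of all 9 markers were 92.5 to 445 FPKM in CKO and 12.5 to 150 FPKM in WT. They include the globin gene Hbb-bs, which reached 144 FPKM in WT, so they are not mast cell levels. Of 7 surface epithelium markers, 6 were tested and 1, Krt19, was called higher, with sums of 74.0 to 411 FPKM in CKO and 59.1 to 156 FPKM in WT. CKO replicate 1, the highest in Cd9, was also the highest in that sum. Of 6 endothelial markers, 1, Tek, was called higher, and 0 lower, with sums of 131 to 188 FPKM in CKO and 74.6 to 173 FPKM in WT. Of 5 oviduct markers, 2 were tested and 1, Sox17, was called higher. Leaving out 1 library ended the call of Krt19 in 8 of 12 fits, that of Tek in 2 and that of Sox17 in 9. Beside these counts, 8.7% of all genes tested were called higher. The part of these cells in the difference of Cd9 was not tested.

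**Figure D5:**
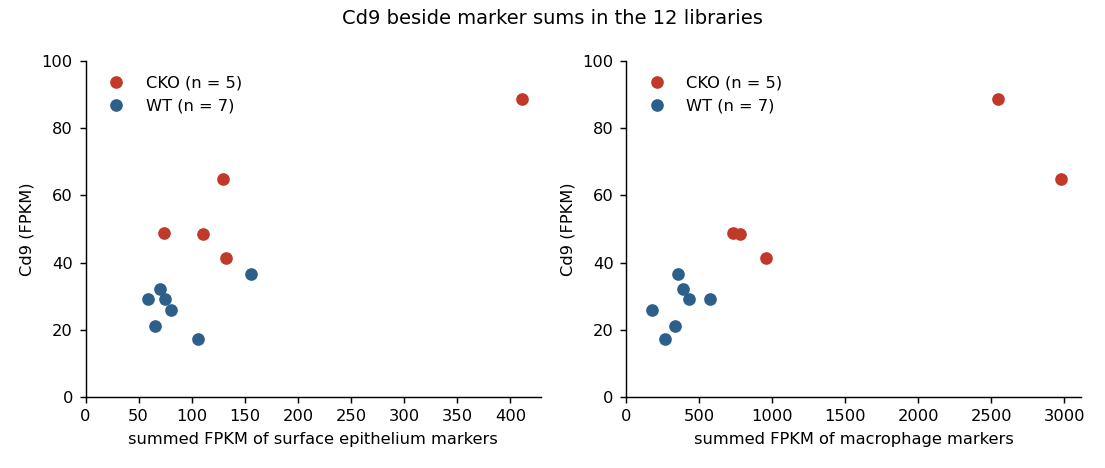
Cd9 in FPKM (vertical axis) against the summed FPKM of surface epithelium markers (left) and macrophage markers (right) in 5 CKO and 7 WT libraries, each point a library. CKO replicates 1 and 5, at 88.8 and 64.9 FPKM of Cd9, have the highest macrophage sums. CKO replicate 1 has the highest surface epithelium sum at 411 FPKM. Lyz2 makes up most of the macrophage sum.

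Other oocyte genes give the setting of Zp3, Astl and Oosp1. Of 19 listed, 16 were tested, with 0 called higher and 11 lower, and a median log2 fold change of -1.20. Among all genes tested, 7.59% were called lower. Bmp15, which encodes an oocyte growth factor, averaged 1.65 FPKM in CKO and 14.1 FPKM in WT, and Zbed3, of the maternal subcortical complex, averaged 47.5 FPKM in CKO and 115 FPKM in WT. Mos and Zar1 were also among the 4 with the smallest p. Nlrp2, called lower, reached at most 0.557 FPKM in CKO and passed the filter through WT libraries only. The other 5 tested genes were not called, with log2 fold changes of -0.02 for Nlrp5, -0.09 for Dazl, -0.44 for Dppa3, -0.54 for Padi6 and 0.26 for Kit. Of 11 granulosa markers, 10 were called lower and 0 higher, with a median of -2.27 and Nr5a2, Fst, Hsd17b1 and Inhba as the 4 with the smallest p. Beside this oocyte median of -1.20 stand -1.27 for Zp3, -1.72 for Astl and -1.33 for Oosp1, with their ratios to 16 of these genes given above.

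Genes whose levels followed each member most closely were found by the Pearson correlation of log2(FPKM + 1) over the 12 libraries, with the mean of each genotype removed. The libraries share depth and composition, and with 12366 genes searched high values arise, so the correlations are a description. Astl was closest to Bmp15 (r = 0.94), Zbed3 (0.92) and Pcdhb8 (0.92). Zp3 was closest to Gli2 (0.93), Ccno (0.92) and Xylb (0.90), and Zp2 to Fndc5 (0.90), Oas1h (0.88) and Xylb (0.88). Cd9 was closest to Slamf8 (0.92), Hvcn1 (0.91) and Sema4d (0.90), of which Slamf8 (log2 fold change 1.68, limma adjusted p = 0.000413) and Hvcn1 (1.56, 0.000823) rose in CKO. Zp1 was closest to Col1a2 (0.94), Tctn2 (0.91) and Mn1 (0.86), and Oosp1 to Unc13b (0.92), Pja1 (0.91) and Nhlrc1 (0.91). Bmp15 and Zbed3 are the named genes that also belong to the oocyte list, and both were called lower.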

How the data were processed

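RNA of 12 whole ovaries was isolated as polyadenylated RNA and sequenced in paired reads, per the labels' protocols. Per the labels and the submitters' processing notes, the authors aligned reads to mm10 with TopHat2 2.0.13, computed FPKM with Cufflinks 2.2.1 and compared groups with Cuffdiff 2.2.1, and they deposited its log2 fold changes, p-values and q-values. The annotation, scaling and strand setting they used were not given in the sources used here. That log2 fold change is CKO over WT, within 0.01, for 99.9% of 13045 genes, despite the order in its name.

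FPKM are not counts, so log2(FPKM + 1) was fitted with limma 3.58.1 (trended variance) in R 4.3.3, on genes with at least 1 FPKM in at least 5 of 12 libraries, without covariates. The fit was tested on simulated data. Ratios and shares within libraries were compared by two-sided exact permutation of absolute differences over the libraries, whose smallest p is 0.0013. Depth was not given. Fragments were read from the steps between low values, of which 11 of 11 for Zp1, 11 of 11 for Zp2, 4 of 4 for Zp3, 3 of 3 for Astl and 5 of 6 for Oosp1 were whole within 0.15, while 74.0% to 84.9% of values of 548 low single-transcript genes were. These include the smallest step of each gene, which is whole by construction. Fragment counts are estimates. From transcript length and depth, WT libraries together had 206 for Zp3 and 230 for Astl, beside 188 and 216 from the steps. Transcript lengths came from GENCODE and promoters from RefSeq, which matched 4 of the 6 members.

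Members and gene lists were chosen with earlier results of these data known. Umodl1 and Tspan10 were named outside the rule that follows, because their groups did not overlap. Named were all members, every tested egg surface, zona regulator and cortical granule gene, the called genes and the 3 with the highest mean of each protein family, the 3 genes most like each member, and up to 4 examples of each marker list by smallest p. Alternatives were other pseudocounts, filters, scalings, array weights, the permutation test, leaving out libraries and a replicate block.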

Additional observations from a re-analysis of the deposited data

Results flagged for a closer look

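Among 34 groups of 5 or 7 values examined, 4 held a sample far from the others by Dixon's criterion, which chance meets in about 1 in 20 groups. Zp1 was at 2.86 FPKM in CKO replicate 4, against 0.274 to 0.949 FPKM in the other CKO libraries. Oosp1 was at 0.718 FPKM, or 1 fragment, in CKO replicate 5 and listed at 0 in the other 4. With the others tied at 0, any value above 0 meets the criterion, so the rate of 1 in 20 does not apply to Oosp1. The log2 ratio of Zp1 to Zp2 was -0.56 in CKO replicate 2 and 0.10 to 0.36 in the other CKO libraries. The log2 ratio of Zp3 to the mean of 16 other oocyte genes was -1.05 in CKO replicate 5, where Zp3 rests on 1 fragment, and 0.05 to 0.20 in the other CKO libraries.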

How the results depend on the processing

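The log2 fold changes of Zp3, Astl, Oosp1 and Cd9, and the ratio differences that passed the test, kept their sign under every alternative tried. Values near 0 did not: the difference for Zp3 to other oocyte genes (0.07) was -0.04 without WT replicate 6 and -0.05 without CKO replicates 2 and 3, that for Oosp1 to oocyte genes (0.01) was -1.13 with 0.1 FPKM added, that for Oosp1 to Zp3 (-0.06) was 0.27 without WT replicate 6, and that for Zp1 to Zp2 (-0.18) was 0.11 with 0.1 FPKM added. Zp1 (-0.02) ranged from -0.29 to 0.12 and Zp2 (0.16) from -0.05 to 0.35 without 1 library. With 0.1 FPKM added, Astl gave -2.96 (limma adjusted p = 0.0195) and Oosp1 -3.00 (0.0909). Log2 fold changes of Zp3 outside the threshold were -1.63 with 0.1 FPKM added (limma adjusted p = 0.0631), -1.43 with 0.5 added (0.0524), -1.27 without the filter (0.0752), -1.23 with array weights (0.0546) and -1.27 by exact permutation (0.109). With library pairs left out, chosen after seeing the data, Zp3 gave -1.23 (0.144) without CKO replicates 2 and 3, and -1.05 (0.0962) when CKO replicates 1 and 5 were dropped. Astl gave -1.33 (0.107) without CKO replicates 2 and 3 and -1.72 (0.0549) by exact permutation. Leaving out 1 library at a time, the log2 fold changes ranged from -1.49 to -0.88 for Zp3, -2.02 to -1.48 for Astl, -1.58 to -1.16 for Oosp1 and 0.89 to 1.16 for Cd9, and the Zp1 to Zp3 ratio difference from 1.00 to 1.45. That ratio gave 1.40 (exact adjusted p = 0.0733) and 1.19 (0.0917) without the same CKO pairs. The Astl to Zp3 difference became -1.32 (0.0361) with 0.1 FPKM added. Genes called numbered 893 to 1200 higher and 737 to 1106 lower without 1 library, beside 1145 and 999, and 702 higher without CKO replicates 1 and 5. The causes were not tested.

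Replicate numbers 1 to 5 occur in both genotypes, and numbers 1 to 4 were used, since the WT column that would hold number 5 is the unnumbered library. Deviations of same-numbered libraries correlated at -0.01, 0.10, 0.04 and -0.06, so no shared deviation was seen. With so few libraries this cannot tell whether the samples were paired. A fit with the replicate block on these 8 libraries called 756 genes higher and 622 lower, with log2 fold changes of -1.05 for Zp3 (limma adjusted p = 0.0296), -1.67 for Astl (0.0416), -1.38 for Oosp1 (0.0651) and 1.21 for Cd9 (0.0104). Equal medians or upper quartiles shifted the median gene by at most 0.008 on the log2 scale. Depth limits Zp1, Zp2 and Oosp1 most.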
